A study of Mus musculus with 4 samples.

Results

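The data cover the enzymes that break down the amino acid tryptophan along the kynurenine pathway, together with Tph1, which starts its conversion to serotonin. The members were Ido1, Ido2, Tdo2, Afmid, Kmo, Kynu, Haao and Tph1, and all probe sets that the platform annotation assigns to exactly 1 of these symbols were taken: 9 of the 22626 probe sets, 2 of them for Tdo2. Each was measured in sorted mouse Langerhans cells, dendritic cells that reside in the epidermis and present antigen. The TCDD group held 2 arrays from mice given 10 µg of 2,3,7,8-tetrachlorodibenzo-p-dioxin (TCDD), a dioxin that activates the aryl hydrocarbon receptor (AhR), in 100 µl of oil or DMSO and oil. The control group held 2 arrays. The treatment label of control 1 names DMSO and olive oil. All cells were isolated after 24 h, and the design text gives injection into the peritoneum and a sorting purity of 95%. TCDD 2 and control 2 came from back skin, and the labels of TCDD 1 and control 1 name no skin site. The sources used here give no strain, age, sex or number of mice per array. Nothing in the labels says that the 2 arrays of a group came from separate animals, so the p-values rest on a spread between arrays that may be technical.

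The pathway opens when Ido1, Ido2 or Tdo2 adds oxygen to tryptophan and opens its indole ring. Afmid then removes the formyl group to give kynurenine, which Kmo hydroxylates and Kynu cleaves, and Haao carries the product on towards NAD. Ido1 is the form best known in dendritic cells, where interferon gamma induces it and where loss of tryptophan and gain of kynurenine restrain T cells. Kynurenine is itself an AhR ligand, and AhR ligands including dioxin have been described to induce Ido enzymes in other dendritic cell systems. Tdo2 is chiefly a liver enzyme. Tph1 is the tryptophan hydroxylase of peripheral tissues and is known from mast cells.

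AhR with its partner Arnt binds DNA at a core of GCGTG. RefSeq start sites (GRCm38.p6) were matched for 5 of the 8 genes: Tdo2, Afmid, Kmo, Haao and Tph1, the last with 2 starts. In the 250 bases before each of these 6 starts, GCGTG on either strand (CACGC where it lies on the other strand) was present in 3 windows, those of Tdo2, Haao and 1 of the Tph1 starts. It was present in 28.2% of all 32851 windows of that length. The 3 windows are shown because they hold the core that the receptor of the injected compound binds, with the core in capitals. A match is a description of the letters, not of binding, and the arrays do not tell which start a transcript used.
Tph1 (chr7:46672538-46672787, minus strand): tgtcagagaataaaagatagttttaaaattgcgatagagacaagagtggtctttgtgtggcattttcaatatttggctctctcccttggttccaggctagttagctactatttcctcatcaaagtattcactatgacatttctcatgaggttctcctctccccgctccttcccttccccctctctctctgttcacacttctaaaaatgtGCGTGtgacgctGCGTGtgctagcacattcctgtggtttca
Haao (chr17:83846791-83847040, minus strand): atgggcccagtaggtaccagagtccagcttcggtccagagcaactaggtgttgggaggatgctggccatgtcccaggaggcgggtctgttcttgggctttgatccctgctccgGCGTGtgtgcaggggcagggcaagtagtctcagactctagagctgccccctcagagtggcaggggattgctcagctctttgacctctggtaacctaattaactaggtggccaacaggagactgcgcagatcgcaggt
Tdo2 (chr3:81975729-81975978, minus strand): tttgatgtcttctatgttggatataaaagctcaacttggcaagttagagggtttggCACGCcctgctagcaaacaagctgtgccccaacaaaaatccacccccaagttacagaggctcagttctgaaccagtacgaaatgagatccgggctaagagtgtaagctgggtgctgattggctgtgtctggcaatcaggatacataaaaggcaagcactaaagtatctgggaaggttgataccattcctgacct
The Tph1 window held 2 copies, which begin 41 and 29 bases before the start (positions -41 and -29), and 8.63% of all windows held 2 or more. The Haao copy begins at position -137 and the Tdo2 copy at position -194.

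The values are Affymetrix MAS5 signal intensities on a linear scale, scaled by the authors so that every array has the same trimmed mean of 500. The median signal was 180.8 on TCDD 1, 172.8 on TCDD 2, 164.9 on control 1 and 188.1 on control 2. The signal of a probe set also depends on its probes, so levels are compared between arrays and not between genes. Among markers of Langerhans cells, Epcam read between 7541 and 10032 and Cd74, the class II invariant chain, between 3406 and 6750. Ptprc read between 2179.6 and 3677.2, but Itgax was dim, between 115.3 and 230.7. The class II chain H2-Eb1 read 1404.3 on control 1, against 5979.9 on TCDD 1, 3972.0 on TCDD 2 and 7042.2 on control 2. Cd207, which encodes langerin, read 5343.3 and 2154.7 on TCDD 1 and TCDD 2, against 2119.9 and 7210.5 on control 1 and control 2. Control 1 stood apart in RNA quality, with a ratio of 3′ to 5′ actin signal of 49.7, against 3.48 on TCDD 1, 7.71 on TCDD 2 and 4.64 on control 2. The treatment protocol of control 2 names TCDD, against its title and description, which were followed. The TCDD differences of the members are therefore also given without each of these arrays.

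Ido1 and Ido2 read lower on both TCDD arrays than on both controls, as did 13.2% of all 13576 tested probe sets. The groups overlapped for Kmo, Kynu and the tested Tdo2 probe set, and none of these 5 genes passed the test of TCDD against control. That test was limma on log2 signals with skin site as a second term, run on the 13576 probe sets at or above the 40th percentile of mean log2 signal (a geometric mean signal of 115.4) and adjusted by the Benjamini-Hochberg method at 0.05. Of the members, 5 probe sets of 5 genes (Ido1, Ido2, Tdo2, Kmo and Kynu) passed the filter, and 4 lay below it: those of Afmid, Haao and Tph1 and a dim one of Tdo2. Of the 5 tested, 0 passed at an adjusted p under 0.05, where 0 of all 13576 (0%) passed, and 0 had an unadjusted p under 0.05, where 199 of all (1.47%) did. Differences below the filter come from the same fit without a filter.

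**Figure D1:**
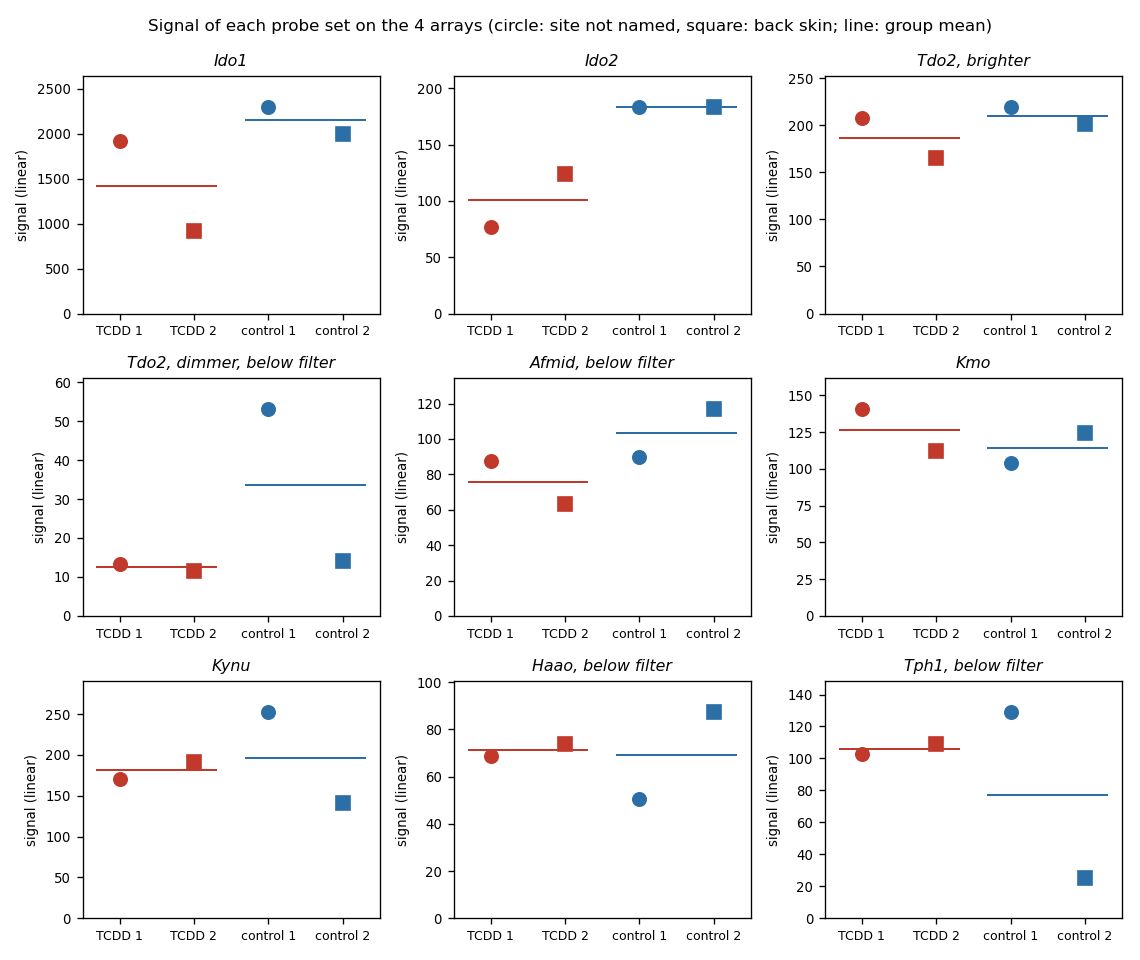
Signal (linear scale, each panel with its own axis from 0) of the 9 probe sets on the 4 arrays, TCDD in red and control in blue, circles for the arrays with no site named and squares for back skin, lines for group means of 2 arrays. Ido1 and Ido2 are the tested probe sets in which both TCDD arrays lie below both controls.

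Ido1, the interferon-inducible enzyme of the pathway's opening step, had a signal between the 84.9th and the 93.2nd percentile of its array. It read 1924.3 on TCDD 1 and 915.2 on TCDD 2, against 2297.9 on control 1 and 1999.6 on control 2. A single array, TCDD 2, was low, and the other 3 read between 1924.3 and 2297.9. The groups did not overlap: both TCDD values lay below both controls. The mean signal was 1419.8 ± 713.5 after TCDD and 2148.8 ± 210.9 in controls (SD, n = 2 each). The TCDD minus control log2 difference was -0.69 ± 0.37 (SE), a fold of 0.619 with a 95% interval of 0.346 to 1.108 (limma, unadjusted p = 0.0946, adjusted p = 0.9999). In these bulk samples, fewer cells with Ido1 RNA and less Ido1 RNA per cell cannot be told apart.

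The size of the Ido1 difference rested on TCDD 2. Within back skin the log2 ratio of TCDD to control was -1.13, and with no site named it was -0.26. Without TCDD 2 the difference was -0.16 ± 0.43, and without TCDD 1 it was -1.23 ± 0.45. Without control 1 it was -0.59 and without control 2, the array with conflicting labels, -0.79 (limma, adjusted p = 0.423). These fits carry no skin site term, so treatment and site are mixed in them. The remaining single array of a group is assumed to vary like the other arrays. Whether the ratio differed between the sites was not tested, since each site holds 1 array per group.

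Ido2, the paralogue of Ido1 and the next coding gene beside it on chromosome 8, read 77.1 on TCDD 1 and 123.8 on TCDD 2, against 183.4 on control 1 and 183.3 on control 2. The controls read nearly the same, both TCDD arrays were lower, and the groups did not overlap. Here TCDD 1 was the lowest array, whereas for Ido1 it was TCDD 2. The mean was 100.4 ± 33.0 after TCDD and 183.4 ± 0.1 in controls (SD, n = 2 each). The log2 difference was -0.91 ± 0.46, a fold of 0.533 with a 95% interval of 0.26 to 1.094 (limma, unadjusted p = 0.0787, adjusted p = 0.9999). The log2 ratio was -1.25 for the unnamed site and -0.57 in back skin. The difference was -0.57 without TCDD 1, -1.25 without TCDD 2, -0.91 without control 1 and -0.91 without control 2. The TCDD 1 signal lay at the 29.9th percentile of its array and the controls at the 53.0th and 49.4th, so these are dim signals close to the filter.

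Tdo2, the third enzyme of the opening step, had 2 probe sets made from the same sequence record. The brighter read 208.0 on TCDD 1 and 165.2 on TCDD 2, against 219.3 on control 1 and 200.9 on control 2. These values overlapped and spanned 1.33-fold, the narrowest range among the 9 probe sets. The log2 difference was -0.18 ± 0.38, with a 95% interval from -1.04 to 0.68 (limma, adjusted p = 0.9999), and it was -0.12 without control 1 and -0.24 without control 2. The dimmer read 13.4 on TCDD 1 and 11.6 on TCDD 2, against 53.0 on control 1 and 14.0 on control 2. Its groups did not overlap, though control 2 read close to the TCDD arrays. Its value on control 1, the array with the high 3′ to 5′ ratio, stood alone, and the other 3 lay below the 20th percentile of their arrays (39.2 to 40.6). Its log2 difference of -1.13 ± 0.78 was -0.17 without control 1 and -2.09 without control 2, and the part of RNA quality in it was not tested. Albumin, the hepatocyte marker that passed the filter, read 189.5 and 184.7 after TCDD, against 215.4 and 191.3 in controls. The hepatocyte markers Ttr, Fgb and Apoa1, below the filter, went the other way, with log2 differences of 1.90, 0.20 and 0.17. The 4 summed to 278.0 and 288.0 after TCDD, against 263.3 and 259.8 in controls. The part of liver RNA in the Tdo2 values was not tested.

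Of the 3 genes of the opening step, all tested probe sets were lower after TCDD within both skin sites, and in 2 of them the groups did not overlap. Among all 13576 probe sets, 21.3% were lower within both sites and 13.2% had both TCDD arrays below both controls. The 95% interval of each of these differences included 0.

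**Figure D2:**
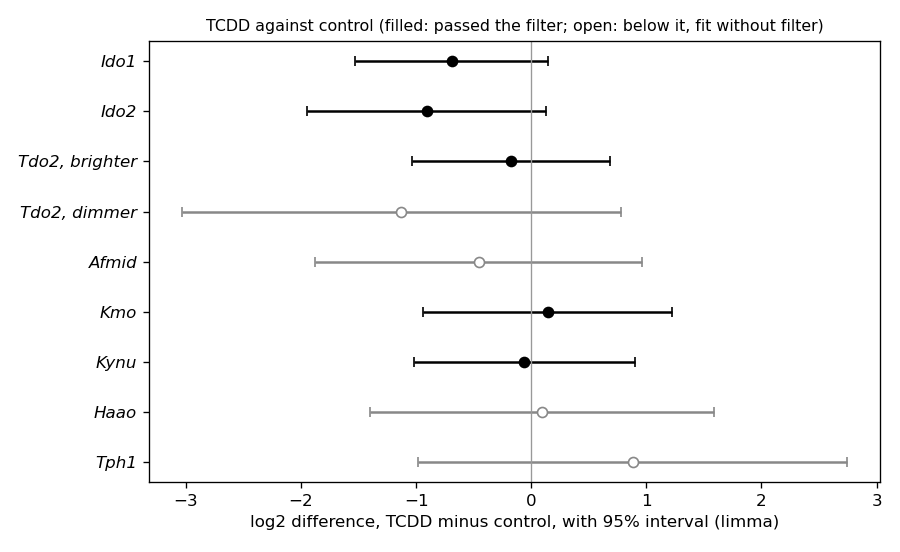
TCDD minus control log2 difference (horizontal axis) with its 95% interval from limma for each probe set, filled where it passed the filter and open where it lay below it and was fitted without the filter. Every interval includes 0, and those of Ido1 (-1.53 to 0.15) and Ido2 (-1.95 to 0.13) lie furthest to the side of lower signal among the tested.

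Afmid, the formamidase that releases kynurenine, lay below the filter. It read 87.8 on TCDD 1 and 63.3 on TCDD 2, against 89.9 on control 1 and 116.7 on control 2. The groups did not overlap, but TCDD 1 and control 1 read nearly the same. Both TCDD arrays lay below both controls in 13.2% of all tested probe sets. The log2 difference was -0.46 ± 0.58, with ratios of -0.03 for the unnamed site and -0.88 in back skin. It was -0.65 without control 1, -0.27 without control 2, -0.69 without TCDD 1 and -0.22 without TCDD 2.

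Kmo, the monooxygenase that hydroxylates kynurenine and is known from macrophages and microglia, read 140.5 on TCDD 1 and 111.9 on TCDD 2, against 103.9 on control 1 and 124.1 on control 2. The groups overlapped, with TCDD 1 highest and control 1 lowest. The log2 difference was 0.14 ± 0.47, with a 95% interval from -0.94 to 1.22 (limma, adjusted p = 0.9999). Its sign turned without TCDD 1 (-0.02), and it was 0.015 without control 1 and 0.27 without control 2. At a geometric mean signal of 119.3, Kmo lay just inside the filter.

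Kynu, the kynureninase that cleaves kynurenine and its hydroxylated form, read 170.7 on TCDD 1 and 191.6 on TCDD 2, against 252.8 on control 1 and 140.8 on control 2. Both TCDD arrays lay between the controls. The log2 difference was -0.06 ± 0.42 (limma, 95% interval from -1.02 to 0.90, adjusted p = 0.9999). It depended on the controls: without control 1 it was 0.36 ± 0.43 and without control 2 it was -0.48 ± 0.39.

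Haao, the dioxygenase that opens the ring of 3-hydroxyanthranilate, read 68.7 on TCDD 1 and 73.6 on TCDD 2, against 50.6 on control 1 and 87.4 on control 2, and both TCDD arrays again lay between the controls. The log2 difference was 0.10 ± 0.61, below the filter. It was -0.30 without control 1 and 0.49 without control 2.

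Tph1, the hydroxylase that opens the serotonin branch, read 102.7 on TCDD 1 and 108.8 on TCDD 2, against 129.2 on control 1 and 25.5 on control 2. A single array, control 2, was low, below its array's 20th percentile of 40.6. The log2 difference of 0.88 ± 0.76, below the filter, was -0.29 without control 2 and 2.05 without control 1. The 9 mast cell markers measured, 7 of them above the filter, summed to 1170 and 1215.2 after TCDD, against 1255.5 and 1291.2 in controls. The part of mast cells in the Tph1 values was not tested.

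**Figure D3:**
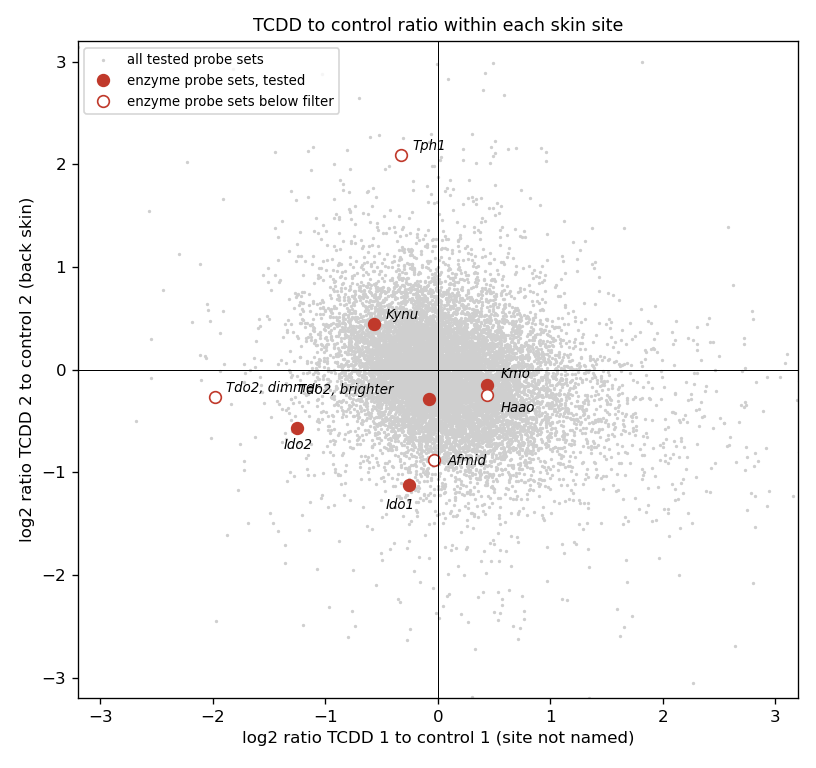
Log2 ratio of TCDD to control with no site named (TCDD 1 to control 1, horizontal) and in back skin (TCDD 2 to control 2, vertical), in red for the 9 enzyme probe sets and in grey for all 13576 tested probe sets, of which 31 lie outside the plotted range. Ido1, Ido2, both Tdo2 probe sets and Afmid lie in the lower left quadrant, Kynu and Tph1 in the upper left, Kmo and Haao in the lower right, and none in the upper right.

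Over the 9 probe sets, 5 were lower after TCDD within both sites, 0 were higher within both and 4 had opposite signs. These counts include the 4 probe sets below the filter, and the shares below cover tested probe sets only. Of the 5 tested, 3 were lower within both and 2 had opposite signs, against 21.3% and 59.3% of all tested probe sets. In 0 of the 5 were both ratios positive, against 19.3% of all tested probe sets, and in 0 did both TCDD arrays lie above both controls, against 12.4%. Whether counts among only 5 probe sets differ from these shares was not tested. The ratios in the 2 sites come from separate pairs of arrays. Over all tested probe sets, the 95% interval of the fit reached a median of 0.83 log2 units to each side. The difference of -0.69 for Ido1 had an interval from -1.53 to 0.15, and that of -0.91 for Ido2 from -1.95 to 0.13.

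**Figure D4:**
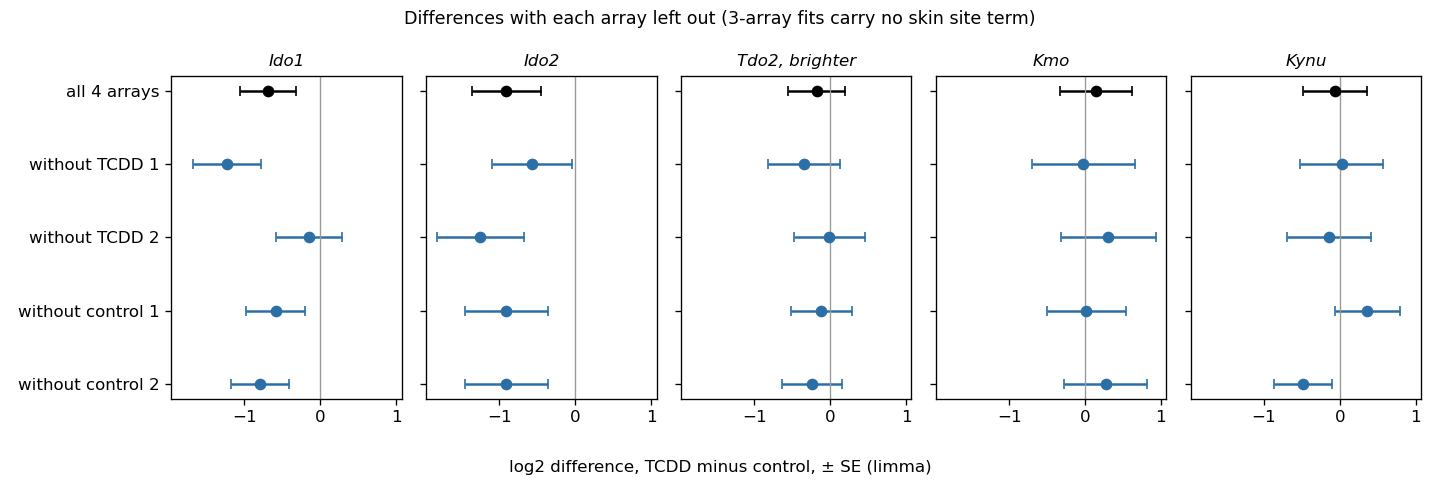
TCDD minus control log2 difference ± SE (limma) of the 5 tested probe sets with all 4 arrays (black) and with each array left out (blue). The fits with an array left out carry no skin site term. Ido1 ranges from -1.23 to -0.16 and Ido2 from -1.25 to -0.57, on 1 side of 0 throughout, while the signs of Kmo and Kynu turn.

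Setting back skin against the other arrays asked how the origin of the cells was reflected. Site and experiment cannot be told apart, because the control labels of the 2 sites also carry different experiment dates. Of the 5 tested members 0 passed (limma, adjusted p = 0.9994 for each), where 0% of all 13576 probe sets passed and 2.02% had an unadjusted p under 0.05. Ido1 had a back skin minus other log2 difference of -0.64 ± 0.37, with -1.07 among TCDD arrays and -0.20 among controls. Ido2 differed by 0.34 ± 0.46, with 0.68 among TCDD arrays and 0.00 among controls, so Ido1 and Ido2 had opposite signs in this comparison. Kynu differed by -0.34 ± 0.42, the brighter Tdo2 probe set by -0.23 ± 0.38 and Kmo by -0.04 ± 0.47.

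Marker signals of other cells were set beside these values. The 5 melanocyte markers measured summed to 889.6 and 767.9 after TCDD, against 1064.7 and 1091.6 in controls. Both TCDD sums lay below both controls, as with Ido1, Ido2 and the mast cell sums given above. The plasmacytoid dendritic cell sums (1694.0 and 1662.5 after TCDD, against 1507.0 and 1403.7 in controls) went the other way, as did the hepatocyte sums. Macrophage, keratinocyte and fibroblast sums overlapped. Of the 5 melanocyte markers, 4 were lower and 1 was higher within both sites, and 1 of the 4, Kit, is also a mast cell marker. Below the filter, other probe sets of Kit and Tyrp1 had log2 differences of 1.16 and 0.28, and a further Tyrp1 one -0.84. The 9 T cell markers summed to 1545.5 and 685.1 after TCDD, against 790.3 and 2167.8 in controls. Their sum was lower after TCDD in back skin, as was Ido1, but higher with no site named, where Ido1 was lower. Langerhans cell markers summed to 43393.9 and 38396.2 after TCDD, against 36641.8 and 51551.0 in controls, likewise lower in back skin and higher with no site named. The part of these cells in the Ido1 and Ido2 values was not tested. With each array centred on its 10 Langerhans cell markers, an alternative chosen after seeing the data that moved the median of all probe sets to 0.13, the log2 difference was -0.56 ± 0.52 for Ido1 and -0.78 ± 0.52 for Ido2 (limma, adjusted p = 1 for each).

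Genes whose 4 signals ran most like those of Ido1 were found by the root mean square difference of mean-centred log2 signals, over 8412 tested genes and 4 arrays. The nearest was Slc6a4, the serotonin transporter, at 0.058 log2 units, with 899.9 on TCDD 1 and 464.2 on TCDD 2, against 1078.3 on control 1 and 911.7 on control 2. It was followed by Cav2, a caveolin (0.060), Wwc1 (0.070), Ndufs1, a subunit of respiratory complex I (0.074), and Vcam1, an adhesion molecule (0.074). All of these were lowest on TCDD 2, which follows from choosing them by nearness to Ido1. The median distance over all genes was 0.563 and 63 genes lay within 0.2. Ido2 lay at 0.634, no nearer to Ido1 than the median gene.

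The other genes of tryptophan metabolism were counted by their brightest probe set with 1 symbol. Of the tested genes of these lists, 0 passed the test in either direction, and 0 had an unadjusted p under 0.05 (limma). Among all 8413 tested genes, 17.9% were higher and 22.8% lower within both sites, with a median log2 difference of -0.03. Among all tested probe sets, both TCDD arrays lay below both controls in 13.2% and above both in 12.4%. Most genes named below have the largest differences of their list, so groups without overlap follow in part from that choice. Of 7 tested genes of the kynurenine side branches and NAD synthesis, 1 was higher and 2 were lower within both sites (median 0.04). Got2, an aminotransferase that can also make kynurenic acid, read 2423.6 and 2730.4 after TCDD, against 4153.4 and 3208.8 in controls (-0.51 ± 0.34). Nmnat3, a mitochondrial NAD-forming enzyme, differed by 0.46 ± 0.36, Il4i1, an amino acid oxidase that also acts on tryptophan, by -0.23 ± 0.42 and Kyat3, another kynurenine aminotransferase, by -0.23 ± 0.35.

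Of 8 tested genes of the serotonin and melatonin branch, 2 were higher and 2 lower within both sites (median -0.03). Pcbd1, which recycles the tetrahydrobiopterin cofactor that Tph1 needs, read 202.7 on TCDD 1 and 177.9 on TCDD 2, against 108.2 on control 1 and 92.0 on control 2 (0.93 ± 0.44; limma, unadjusted p = 0.0629, adjusted p = 0.9999), with groups that did not overlap. Slc6a4, whose signals are given above, differed by -0.62 ± 0.36. Maoa, which degrades serotonin, differed by 0.19 ± 0.34 and Spr, another enzyme of cofactor synthesis, by -0.19 ± 0.39. Of 5 tested amino acid carriers, 0 were higher and 2 lower within both sites (median -0.07): Slc1a5, a glutamine carrier, at -0.59 ± 0.42, and Slc7a11, the cystine and glutamate exchanger that can also carry kynurenine, at -0.39 ± 0.34. Slc7a8 and Slc3a2, a subunit and the shared heavy chain of large neutral amino acid carriers, differed by 0.15 and 0.11.

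Of 9 tested genes of tryptophan charging and the response to amino acid shortage, 3 were higher and 1 was lower within both sites (median 0.16). Trib3, a pseudokinase induced by that response, read 473.2 and 551.2 after TCDD, against 333.5 and 342.5 in controls (0.60 ± 0.34), without overlap. Atf4, the transcription factor of that response, differed by 0.29 ± 0.32. Wars, which charges the tryptophan tRNA, was the gene lower within both, at 627.9 and 752.4 after TCDD, against 671.2 and 804.4 in controls (-0.10 ± 0.34). The probe sets of Asns, asparagine synthetase, disagreed in sign (0.24 for the brightest, -0.22 for the other), as did those of the kinase Mtor (-0.34 and 1.37).

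Of 20 tested regulators of Ido1, 1 was higher and 4 were lower within both sites (median -0.05). Irf2, an interferon regulatory factor that competes with Irf1, read 117.3 and 60.3 after TCDD, against 209.3 and 140.9 in controls (-1.03 ± 0.47; limma, unadjusted p = 0.0562, adjusted p = 0.9999), without overlap. Irf1, which activates Ido1 after interferon gamma and was singled out with its values known, read 2263.9 and 2646.8 after TCDD, against 2405.3 and 2527.4 in controls (-0.01 ± 0.33). Tgfbr2, a receptor chain for TGF-beta, differed by -0.52 ± 0.35, Relb by 0.38 ± 0.43 and Cd80, a ligand of CTLA-4, by 0.32 ± 0.34. Of 6 tested genes of AhR and its targets, 1 was higher and 1 lower within both sites (median -0.22). Ahr differed by -0.36 ± 0.41, Ahrr by -0.31 ± 0.37 and Tiparp by 0.32 ± 0.35. Cyp1a1, singled out with its values known, read 94.9 and 190.7 after TCDD, against 182.8 and 117.8 in controls (-0.125 ± 0.514). The probe sets of Cyp1b1 disagreed in sign (-0.59 for the brightest, 0.09 for another tested one).

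**Figure D5:**
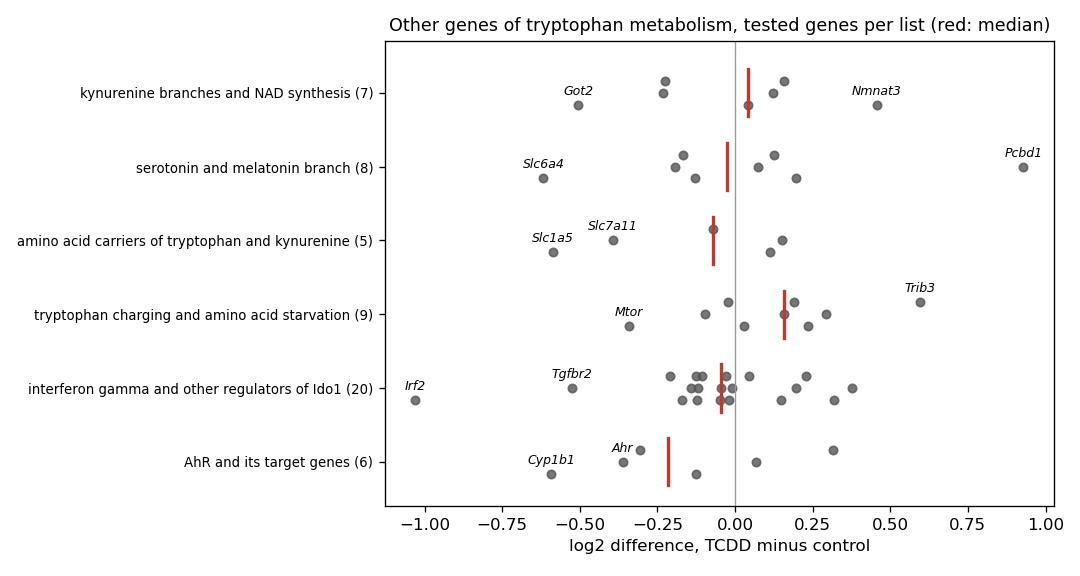
TCDD minus control log2 difference (horizontal axis) of each tested gene by list, with the number of tested genes in brackets, the list's median in red and the genes with the largest differences named. The medians lie between -0.22 and 0.16, and no gene passed the test.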

How the data were processed

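The deposited values are MAS5 signal intensities, 1 per probe set and array, which the authors had scaled to a common trimmed mean of 500 (the lowest and highest 2% of probe sets left out). Per the submitters' processing notes the tools were affy and MAS5. The sources used here give no versions, background settings or detection calls. RNA was amplified from its 3′ end and labelled with biotin, per the labels' protocols, so a signal depends on RNA length and on how far a probe set lies from that end. Of 22690 probe sets, 64 controls served only for RNA quality. Of the rest, 20380 had 1 symbol, 691 several and 1555 none, and 20351 single symbols were found by gene ID in a RefSeq mouse table (GRCm38.p6). The array files name no build.

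Signals were taken to log2 without further normalization and fitted with limma 3.58.1 in R 4.3.3 on all 4 arrays, with treatment and skin site as terms and eBayes with a mean-variance trend, so each probe set has 1 residual degree of freedom before moderation. Precision is limited by the number of arrays, with a median SE of 0.364. Replicate numbers follow accession order and were not used to pair arrays. The labelled skin site sets TCDD 1 beside control 1 and TCDD 2 beside control 2, and is the block of the fit. The fit was run on simulated data with independent noise drawn from its own variance model. These held no site effect and no array of poorer RNA, so they cannot show how the fit behaves with either. Alternatives tried were median centring, quantile normalization, a 60th percentile filter or none, a floor of 50, an offset of 32, no variance trend and no site term. Each array was also left out, in fits without a site term. Centring on Langerhans cell markers was added after seeing the data.

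Members, gene lists and tests were chosen with earlier results of these data known. Named are all member probe sets, up to 4 genes per list with the largest log2 difference, the 5 genes nearest to Ido1 and the Langerhans cell markers Cd207, Epcam and Cd74. Other names are said to be chosen afterwards, or are given because a list's count, a marker of another cell or the pathway itself turns on them.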

Additional observations from a re-analysis of the deposited data

Results flagged for a closer look

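The log2 ratio of TCDD to control had opposite signs in the 2 skin sites for 4 probe sets, each ratio from 1 array per group, and these differences between sites were not tested. The ratio for the unnamed site, followed by that for back skin, was 0.43 and -0.15 for Kmo, -0.57 and 0.44 for Kynu, 0.44 and -0.25 for Haao, and -0.33 and 2.09 for Tph1. Opposite signs were found in 59.3% of all tested probe sets.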

How the results depend on the processing

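No tested member passed in any alternative run for TCDD, or in the scaling, filter, low-signal and variance alternatives run for the skin site, where arrays were not left out. The TCDD minus control log2 difference kept its sign for Ido1 in 13 of 13 alternatives (-1.23 to -0.16), for Ido2 in 12 of 12 (-1.25 to -0.57) and for Tdo2 (brighter probe set) in 12 of 12 (-0.35 to -0.01). That of Kmo turned without TCDD 1 and ranged from -0.021 to 0.307 with 1 array left out. That of Kynu turned without TCDD 1 (0.022), without control 1 (0.361) and with centring on Langerhans cell markers (0.071), and ranged from -0.483 to 0.361 with 1 array left out. The causes were not tested. The smallest adjusted p of a member was 0.423, for Ido1 without control 2. Over all probe sets the count past the test, 0 in all, ranged from 0 to 285 with 1 array left out: 285 without control 2, 12 without control 1 and 0 without either TCDD array. Centring on Langerhans cell markers gave 9 for TCDD and 15 for the skin site. Without the site term as a block the count stayed 0. Members other than Ido1 lay below the stricter filter and have no value there. The site comparison could not be made with the site term left out. Dim signals limit Ido2, Kmo and all members below the filter.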

Other observations

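Aadat, Ifng and Ddc, which lay below the filter, had their lowest signal on control 2, as Tph1 did. Aadat, a kynurenine aminotransferase, read 90.6 on TCDD 1 and 71.6 on TCDD 2, against 61.8 on control 1 and 8.0 on control 2. Ifng, the inducer of Ido1, read 111.0 and 57.1 after TCDD, against 58.5 and 6.2 in controls, and Ddc, the decarboxylase that makes serotonin, read 94.9 and 38.3 after TCDD, against 77.9 and 15.5 in controls. Ptges2, a prostaglandin E synthase that also lay below the filter, was lowest on control 1 and read 197.2 and 173.0 after TCDD, against 32.5 and 75.7 in controls. These 4 genes were chosen after their values were seen. In the fit without a filter they had an adjusted p of 1 (limma), with unadjusted p-values of 0.0212 for Ptges2, 0.0441 for Ifng, 0.071 for Aadat and 0.2865 for Ddc. In that fit 514 of all 22626 probe sets had an unadjusted p under 0.05 (limma).

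Ccr7 and Fscn1, markers of dendritic cell maturation, were chosen after their values were seen. Ccr7, the receptor for migration to lymph nodes, read 12118.9 and 15146.7 after TCDD, against 10298.0 and 18103.4 in controls. Fscn1, an actin-bundling protein, read 26171.6 and 33887.9 after TCDD, against 30142.2 and 29109.4 in controls. Of the 8 maturation markers, 1 was higher and 1 lower within both skin sites (median log2 difference -0.02), and 0 passed the test or had an unadjusted p under 0.05 (limma).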
